A study of Mus musculus with 9 samples.

Results

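The mRNA levels of 10 heat shock chaperone genes were examined in rat liver. They were taken by name from the 19686 genes of the count table and are Hspa1b, Hspa8, Hsph1, Hspa4, Dnajb1, Hsp90aa1, Hsp90ab1, Hspb1, Hspd1 and Hspe1. Each name occurred once in the table, under a rat Ensembl identifier. The livers came from male Wistar rats, an outbred strain, in 3 groups of 3 libraries. The control group drank purified water and received saline by gavage. The model group drank 15% fructose and received saline by gavage, a diet used to induce metabolic syndrome. The DSS group drank the same 15% fructose and received Danggui-Shaoyao-San, a Chinese herbal formula, by gavage. The labels name this group DSS only. The study states that a 50% methanol extract, given at 1.8 g/kg, was the single extract taken to transcriptomics. Treatment lasted 8 weeks, and the rats were fasted and anaesthetised with chloral hydrate before the liver was taken. The labels give no age. They name the mouse as the organism, but the strain they give and the prefix of the identifiers belong to the rat.

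Heat shock chaperones bind unfolded or partly folded proteins and help them to fold, to be assembled or to be degraded. In the cytosol a client protein is delivered by an HSP40 (J-domain) protein to HSP70, is released when HSP110 exchanges the nucleotide of HSP70, and may then be passed to HSP90. Small heat shock proteins hold unfolded clients without using ATP, and the chaperonin HSP60 with its lid HSP10 folds proteins in the mitochondrial matrix. Transcription of many of these genes is driven by heat shock factor 1 (HSF1), which binds heat shock elements, inverted repeats of the unit GAA. In liver, a tissue with heavy secretory protein synthesis, several of them are abundant without any stress.

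Promoter sequences are shown because heat shock elements are the best known feature that these genes share. The sequences are those of the mouse (RefSeq, GRCm38.p6), matched by symbol, since no rat sequence was used here. The table held 7 of the 10 genes, in 10 windows of 300 bases that run from 250 bases before to 50 bases after an annotated start. Hspa8, Hsp90aa1 and Hsp90ab1 were not matched. The search was for 3 alternating units (GAANNTTCNNGAA or TTCNNGAANNTTC, which are each other's complement) and for 2 units (GAANNTTC or TTCNNGAA, each its own complement and part of the longer motif). Capitals mark the matched units, and lower case marks the flanking bases. Each sequence is written 5′ to 3′ on the strand of the named gene.
Hspd1, chr1:55088051-55088084, minus strand: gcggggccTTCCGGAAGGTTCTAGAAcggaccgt
Hspe1, chr1:55088051-55088084, plus strand: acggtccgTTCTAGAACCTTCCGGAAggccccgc
Hsph1, chr5:149636280-149636308, minus strand: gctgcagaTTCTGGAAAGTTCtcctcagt
Hsph1, chr5:149636354-149636377, minus strand: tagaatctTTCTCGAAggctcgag
Hspb1, chr5:135887794-135887817, plus strand: caacaagaGAAGTTTCcagatggg
Hspb1, chr5:135887814-135887837, plus strand: tgggggcaGAACCTTCctggcccc
Hspa1b, chr17:34959327-34959350, minus strand: aactgctgGAAGATTCctggcccc

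The Hspd1 and Hspe1 sequences are one stretch of DNA read in both directions, since these neighbouring genes are transcribed away from each other. That stretch holds 4 units in a row. The Hsph1 window holds 3 units just after the start and a separate pair before it. Hspb1 has 2 separate pairs and Hspa1b has 1 pair. A motif of 3 units was present in 198 of all 32851 mouse windows (0.603%) and in those of 3 of the 7 matched genes. The pair GAANNTTC occurred in 7.86% of all windows and in those of 5 of the 7 genes, and the pair TTCNNGAA in 8.52% and in those of 3. No match was found in the windows of Dnajb1 and Hspa4. A match describes these letters in the mouse and was not tested for binding.

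Total counts ranged from 14345819 to 26837227 per library. The biological coefficient of variation, the spread between libraries beyond counting error, was 17.6% among control, 27.6% among model and 19.0% among DSS libraries. Model replicate 1 stood apart on the second principal component (25.2% of the variance), at -47.0 where the next library, model replicate 3, was at -10.9. All 8 hepatocyte markers were present in each library. Their summed level ran from 143050 to 180600 CPM for control rats, from 181710 to 231250 CPM for model rats and from 178150 to 224620 CPM for DSS rats. All model rats lay above all control rats in this sum, though narrowly. Taken singly, 2 of the 8 markers had every model rat above every control rat, and 1 had every model rat below. Among all 12486 genes tested in model against control, 1400 and 1231 did. The 3 red blood cell markers measured summed to 116 to 539 CPM, 121 to 247 CPM and 162 to 216 CPM, and the 10 leukocyte and Kupffer cell markers to 236 to 531 CPM, 175 to 379 CPM and 251 to 330 CPM, with overlap of all groups. The 5 endothelial markers measured (84.0 to 253 CPM over all libraries), the 6 stellate cell markers (77.3 to 123 CPM) and the 5 bile duct markers (15.1 to 33.3 CPM, with Krt7 at 0 in at least 1 library) overlapped between the groups as well. The 3 muscle markers measured summed to 2.97 to 3.72 CPM, 1.91 to 4.17 CPM and 2.0 to 2.44 CPM, so that the DSS group lay below the control group, with Myl1 and Tnnt3 at 0 in at least 1 library. Their part in the chaperone values was not tested, and in bulk liver fewer cells of a type and less RNA per cell cannot be told apart.

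Mean chaperone mRNA was highest in the control group for each of the 10 genes and lowest in the DSS group for 9 of them, the exception being Hspa8, which was lowest in the model group. Of the 12264 genes tested in all comparisons, 20.1% had means in the order control, model, DSS from high to low, as did these 9. Hspa1b is among the 9 but was not tested in DSS against model, so it is outside the 12264 genes. It passed the filter on low counts only where the control libraries, its highest group, entered. Most of the differences between groups did not pass the test. In the DSS group, Hsph1 fell by 62.4% and Hsp90aa1 fell by 69.5% against the control group. These were the genes of the 10 that edgeR, the main test here, called in any comparison. Of all genes tested in DSS against control, 0.823% were called lower. Both chaperone calls were lost when certain single libraries were left out. Levels are in CPM, which divides the raw counts of a library by its size after TMM normalization. CPM is not corrected for gene length, so levels are compared between rats and not between genes. Libraries are numbered within their group, and each was read as 1 rat.

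Hspa1b (ENSRNOG00000050647) encodes the stress-inducible cytosolic HSP70 and was the gene with the fewest reads. Its level was 2.49, 0.654 and 0.930 CPM in control replicates 1, 2 and 3, then 0.903, 0.385 and 1.79 CPM in the model replicates and 0.271, 0.270 and 0.572 CPM in the DSS replicates. The DSS rats lay below every control rat, while the model rats spanned both groups and control replicate 1 was above the other control rats. These levels rest on 5 to 62 reads per library. Its near-identical neighbour Hspa1a was not in the count table, so reads of the pair cannot be assigned with certainty.

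Hspa8 (ENSRNOG00000034066) encodes the constitutive HSP70 that carries most housekeeping folding in the cytosol. It was measured at 591, 479 and 601 CPM in the control replicates, 415, 332 and 306 CPM in the model replicates and 306, 395 and 380 CPM in the DSS replicates. All fructose-fed rats, with or without DSS, lay below all control rats, and the model and DSS groups overlapped. Means were 557 ± 67.5, 351 ± 56.9 and 360 ± 47.4 CPM in the control, model and DSS groups (SD, n = 3).

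Hsph1 (ENSRNOG00000000902) encodes HSP110 (HSP105), the exchange factor that works with HSP70 on aggregated protein. It was at 176, 140 and 129 CPM in the control replicates, 81.3, 89.5 and 57.5 CPM in the model replicates and 43.2, 65.5 and 59.3 CPM in the DSS replicates. The lowest control rat was above the highest model rat, and the model and DSS groups overlapped. Its means were 149 ± 24.7, 76.1 ± 16.6 and 56.0 ± 11.5 CPM.

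Hspa4 (ENSRNOG00000016596), another HSP110 relative and exchange factor, varied less. It was at 128, 128 and 109 CPM in the control replicates, 96.3, 107 and 103 CPM in the model replicates and 90.3, 107 and 98.2 CPM in the DSS replicates. Both fructose-fed groups lay just below the lowest control rat and overlapped each other.

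Dnajb1 (ENSRNOG00000021824) encodes the main stress-inducible HSP40, which delivers clients to HSP70. Its values were 70.8, 50.4 and 59.5 CPM in the control replicates, 71.1, 43.8 and 60.8 CPM in the model replicates and 41.2, 53.6 and 46.5 CPM in the DSS replicates. It was the member of the 10 whose 3 groups all overlapped each other. Means were 60.2 ± 10.2, 58.5 ± 13.8 and 47.1 ± 6.19 CPM.

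Of the cytosolic HSP90 pair, Hsp90aa1 (ENSRNOG00000059714) is the stress-inducible form and Hsp90ab1 (ENSRNOG00000019834) the constitutive form. Hsp90aa1 was at 14.2, 8.56 and 7.58 CPM in the control replicates, 4.60, 6.29 and 3.08 CPM in the model replicates and 2.87, 3.51 and 2.96 CPM in the DSS replicates. The control rats lay above all others, control replicate 1 most of all, and the DSS rats were close together, at or below the low end of the model range. Hsp90ab1 was at 973, 999 and 950 CPM, 753, 766 and 722 CPM, and 656, 651 and 696 CPM in the same order. Its 3 groups formed separate bands, with the control group highest and the DSS group lowest. Means ± SD were 974 ± 24.1, 747 ± 22.5 and 668 ± 24.3 CPM (n = 3), so that the SD within a group was small beside the steps between groups.

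Hspb1 (ENSRNOG00000023546) encodes HSP27, the small heat shock protein best known for protecting the actin cytoskeleton under stress. It was at 10.4, 17.5 and 26.0 CPM in the control replicates, 6.97, 7.83 and 7.14 CPM in the model replicates and 8.39, 2.97 and 3.28 CPM in the DSS replicates. All control rats were above all others, though they differed among themselves, and DSS replicate 1 was at the level of the model rats while the other DSS rats were below them.

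Hspd1 (ENSRNOG00000014525) and Hspe1 (ENSRNOG00000051624) encode the mitochondrial chaperonin HSP60 and its lid HSP10, the pair whose shared upstream DNA is shown above. Hspd1 was at 474, 582 and 496 CPM in the control replicates, 376, 395 and 364 CPM in the model replicates and 331, 331 and 313 CPM in the DSS replicates, and formed 3 separate bands like Hsp90ab1. Hspe1 was at 61.2, 76.4 and 57.9 CPM, 70.8, 46.5 and 44.3 CPM, and 33.4, 35.6 and 42.3 CPM. Here model replicate 1 lay within the control range while the other model rats lay below it, and the DSS rats were below every other rat. Means of Hspd1 were 517 ± 57.2, 378 ± 15.6 and 325 ± 10.3 CPM and those of Hspe1 65.1 ± 9.89, 53.9 ± 14.8 and 37.1 ± 4.61 CPM.

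**Figure D1:**
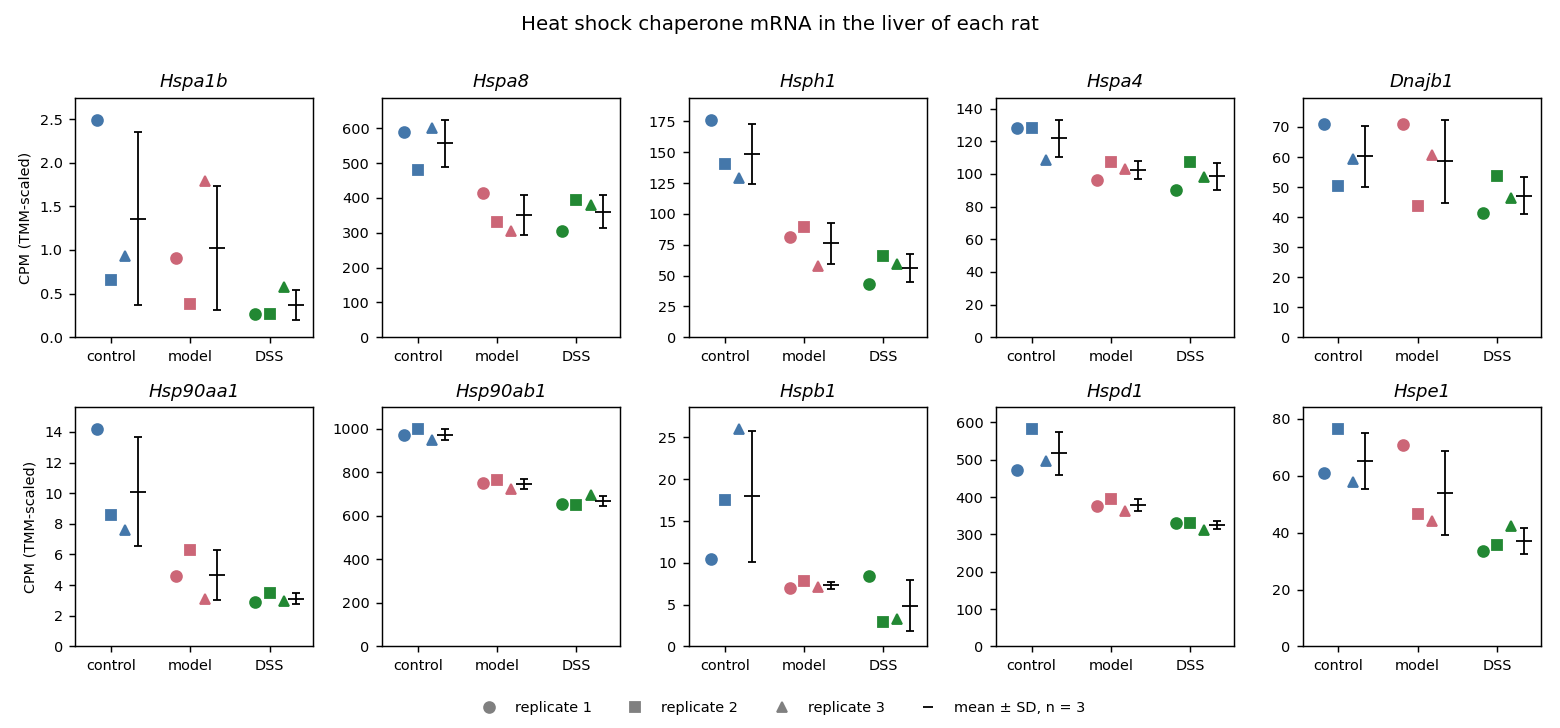
Level of each of the 10 heat shock chaperone genes in each library (y axis, TMM-scaled CPM, linear and starting at 0; x axis, control, model and DSS groups). Symbols are the 3 replicates and the black bars give mean ± SD; Hsp90ab1 and Hspd1 form 3 separate bands, whereas the groups of Dnajb1 overlap.

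The highest of the 9 libraries was a control library for 9 of the 10 genes (control replicate 1 for 4 genes, replicate 2 for 3 and replicate 3 for 2) and model replicate 1 for Dnajb1. The lowest was a DSS library for 9 genes, namely DSS replicate 1 for 5, replicate 2 for 3 and replicate 3 for 1, and, narrowly, model replicate 3 for Hspa8. No single rat therefore gave the extremes of all 10 genes. The same tally was not made over all genes, so these counts are a description only, and they include Hspa1b with its 5 to 62 reads per library.

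The model and control groups were compared to see what 8 weeks of fructose went with. Hspa1b, which is low and passed the filter on low counts only where the control libraries, its highest group, entered, is kept out of the counts and medians that follow. The other 9 genes all had a negative log2 fold change, with a median of -0.46 where that of all 12486 genes tested was 0.00 and 50.1% of them were negative. No chaperone passed the thresholds (edgeR, FDR at most 0.01 with a log2 fold change at or beyond 0.5 in either direction), which 0.0801% of all genes passed, 10 genes in all. Hspb1 had the largest difference, -1.30 (standard error 0.310, FDR 0.121), followed by Hsp90aa1 at -1.13 (standard error 0.323, FDR 0.181), Hsph1 at -0.97 (standard error 0.196, FDR 0.0857) and Hspa8 at -0.67 (standard error 0.172, FDR 0.138). The mitochondrial Hspd1 was at -0.46 (standard error 0.141, FDR 0.219) and Hsp90ab1 at -0.39 (standard error 0.131, FDR 0.262). Differences were smaller for Hspe1 (-0.27, FDR 0.618), Hspa4 (-0.26, FDR 0.449) and Dnajb1 (-0.04, FDR 0.954), and Hspa1b at -0.44 had a standard error of 0.645.

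In 7 of the 9 genes, all but Dnajb1 and Hspe1, every model rat lay below every control rat, whereas 9.86% of all genes were separated in this direction. An unadjusted p under 0.05 was found for 6 of the 9 genes, all lower, and for 6.36% of all genes in that direction. An exact permutation test of 3 against 3 cannot give a p below 0.1. DESeq2 called 2 of the 9 genes lower, Hsph1 (adjusted p = 0.00104) and Hspb1 (adjusted p = 0.00489), where it called 1.03% of all genes lower. Without control replicate 1, the log2 fold change of Hspa1b was 0.37 and that of Dnajb1 0.09, and without model replicate 2 that of Dnajb1 was 0.13, so the direction of these genes rests on single rats. Without model replicate 1, 8 genes were separated (16.0% of all genes in that direction).

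The DSS and model groups share the fructose diet and differ in the extract. Here 9 of the 10 genes passed the filter, all but Hspa1b. Hspa8 was at 0.05 (standard error 0.170, FDR 0.967) and the other 8 genes were negative (49.9% of all genes were), from -0.57 for Hspb1 and Hsp90aa1 to -0.05 for Hspa4. The median of the 9 genes was -0.31, beside 0.00 for all 12502 genes tested. No chaperone was called by edgeR, where 0.136% of all genes were called, and none by DESeq2, which called 0.848% of all genes lower. The smallest unadjusted p belonged to Hspe1, at -0.53 (standard error 0.202, unadjusted p = 0.0292, FDR 0.555), and no other chaperone had one under 0.05. In the direction of Hspe1, 4.49% of all genes did.

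Every DSS rat lay below every model rat in 3 genes, Hsp90ab1, Hspd1 and Hspe1, whereas 7.69% of all genes were separated in this direction. With library size alone as the scale the number was 1, and the share of all genes separated on that scale was not counted. Without model replicate 1 the number was 3, with 12.7% of all genes. The values of Hspa8 (-0.040 without model replicate 3, -0.03 without DSS replicate 2) and Hspa4 (0.0026 without DSS replicate 1) changed sign when 1 rat was left out. Hsp90aa1 at -0.57 (standard error 0.295, FDR 0.716), Hsph1 at -0.44 (standard error 0.210, FDR 0.677), Dnajb1 at -0.31 (standard error 0.196, FDR 0.793) and Hspd1 at -0.21 (standard error 0.125, FDR 0.772) did not pass the test. Single rats also moved the size of uncalled differences. Hspb1 was at -1.23 without DSS replicate 1 and at -0.32 without DSS replicate 2, and Hspe1 was at -0.28 without model replicate 1.

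The comparison of the DSS and control groups covers fructose and the extract together, and it shares its libraries with both others. Hsph1, at -1.41 (standard error 0.174, FDR 0.00313), and Hsp90aa1, at -1.71 (standard error 0.252, FDR 0.00631), fell past both thresholds. With all 9 libraries in one fit Hsp90aa1 was no longer called (FDR 0.0153). These are 2 of the 9 chaperones other than Hspa1b, where 0.823% of all 12633 genes tested were called lower and 1.48% were called in either direction. At an FDR of at most 0.05, Hspe1 (-0.82, FDR 0.0108), Hspd1 (-0.68, FDR 0.0147), Hsp90ab1 (-0.55, FDR 0.0214) and Hspa8 (-0.63, FDR 0.0325) passed too, which makes 6 of the 9 where 3.29% of all genes were called lower.

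The remaining genes were Hspa1b at -1.90 (standard error 0.592, FDR 0.0863), Hspb1 at -1.88 (standard error 0.530, FDR 0.0967), Hspa4 at -0.31 (standard error 0.114, FDR 0.133) and Dnajb1 at -0.36 (standard error 0.143, FDR 0.159). Hspa1b and Hspb1 had the largest differences in size and also the largest standard errors. The 9 genes other than Hspa1b were all negative, as were 50.9% of all genes tested, and their median was -0.68, beside -0.01 for all genes. Every DSS rat lay below every control rat in 8 of these 9 genes, all but Dnajb1, where 14.9% of all genes were separated in this direction. All 9 had an unadjusted p under 0.05, as did 12.5% of all genes in that direction.

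DESeq2 called 7 of these 9 genes lower, all but Dnajb1 and Hspa4, beside 3.01% of all genes. Both edgeR calls depended on single rats. Without control replicate 1, control replicate 2 or DSS replicate 3, the FDR of Hsph1 was 0.0108, 0.0133 and 0.0148 and that of Hsp90aa1 0.0148, 0.0153 and 0.0288, so that no chaperone was called. Without DSS replicate 1 or 2, Hsph1 alone was called, and the FDR of Hsp90aa1 was 0.0326 and 0.0159. Control replicate 1 also carried much of the size for Hspa1b, which was at -1.08 without it, and some for Hsp90aa1, at -1.38.

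**Figure D2:**
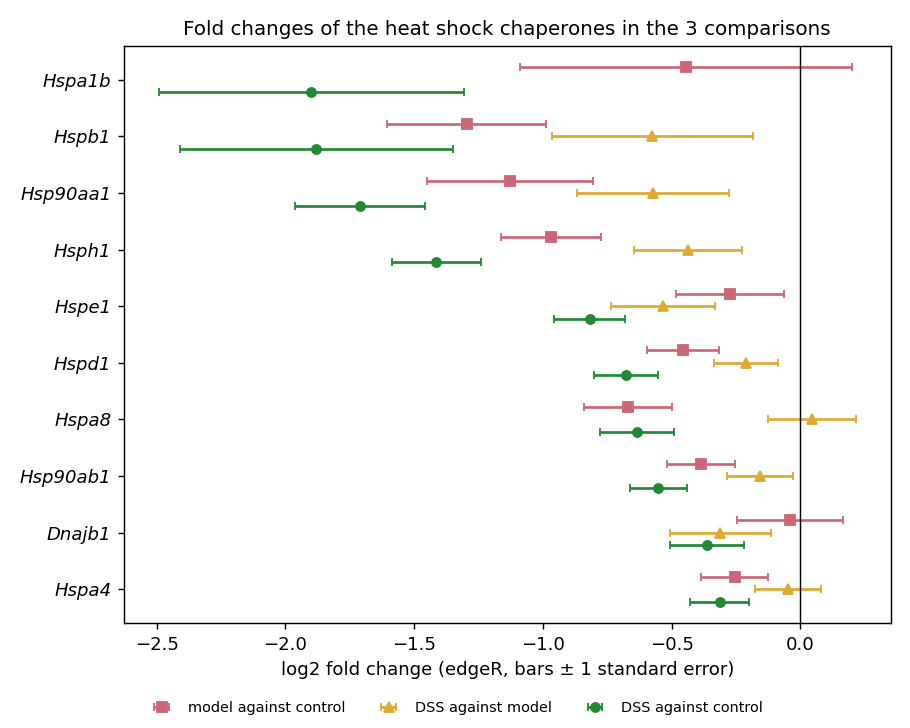
Log2 fold change of each chaperone gene (x axis, edgeR; y axis, genes) in the model against control, DSS against model and DSS against control comparisons, with bars of 1 standard error; Hspa1b was not tested in DSS against model. In model against control and DSS against control every point lies below 0, and in DSS against model Hspa8 lies at 0.05; the 3 comparisons share libraries and are not independent.

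Genes that work with the chaperones were counted from family lists. Among the HSP70 and HSP110 relatives, 4 of 8 genes were tested. Hspa4l, an HSP110 relative closely related to Hspa4, was at 9.32, 14.2 and 10.1 CPM in the control replicates, 5.12, 3.02 and 7.14 CPM in the model replicates and 1.08, 1.73 and 1.04 CPM in the DSS replicates. Its 3 groups did not overlap. It fell in DSS against control, at -3.12 on the log2 scale (standard error 0.265, FDR 0.000467), and was at -1.13 (FDR 0.179) in model against control and -1.98 (FDR 0.101) in DSS against model, where DESeq2 called it (adjusted p = 0.000481). The median of the 4 genes in DSS against control was -0.55.

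The HSP90 co-chaperones, which load clients on HSP90 or set its ATPase cycle, held the most called genes of the chaperone families. They were also the longest of these lists, and of the 4 HSP70 and HSP110 relatives tested 1 was called. Of 15 tested, 4 were called lower in DSS against control by edgeR, where 0.823% of all genes were, and none of the 15 was called higher. In direction, 10 of the 15 were negative there and 5 positive, beside 50.9% of all genes negative. Stip1 (HOP), which bridges HSP70 and HSP90, was at 107, 104 and 92.2 CPM in the control replicates, 61.4, 61.7 and 55.5 CPM in the model replicates and 42.8, 54.8 and 51.4 CPM in the DSS replicates. Its 3 groups did not overlap, though the model and DSS groups nearly met. Its log2 fold change was -1.03 (FDR 0.00202) in DSS against control and -0.77 (FDR 0.0417) in model against control, where DESeq2 called it (adjusted p = 6.56e-05).

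Fkbp4 (FKBP52), a prolyl isomerase of steroid receptor complexes, was at 271, 298 and 229 CPM in the control replicates, 235, 182 and 185 CPM in the model replicates and 93.4, 123 and 129 CPM in the DSS replicates. Here the DSS group stood clear of both others, with -1.21 (FDR 0.00341) against control and -0.79 (FDR 0.155) against model. DESeq2 called the latter too (adjusted p = 0.00588). Ppid (cyclophilin 40), a prolyl isomerase found in the same complexes, had means of 36.2 ± 2.81, 28.9 ± 3.61 and 18.7 ± 0.894 CPM and was at -0.96 (FDR 0.00199) in DSS against control. Ahsa1 (AHA1), the activator of the HSP90 ATPase, had means of 95.9 ± 1.19, 80.8 ± 12.4 and 62.5 ± 4.40 CPM and was at -0.62 (FDR 0.00811). For both genes every DSS rat lay below every other rat. With 1 library left out at a time, Hspa4l was called each time and Ahsa1 never, with an FDR of 0.0182 to 0.0378. Stip1 was not called without control replicate 1 (FDR 0.0108) or DSS replicate 3 (0.0102), Ppid without control replicate 1 (0.0108) or 2 (0.0102), and Fkbp4 without control replicate 1 (0.0156) or 2 (0.0131) or DSS replicate 1 (0.0105) or 3 (0.0107). The list median was -0.37 in DSS against control, -0.13 in DSS against model and -0.16 in model against control, and 9 of the 15 genes were separated downward in DSS against control, beside 14.9% of all genes.

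**Figure D3:**
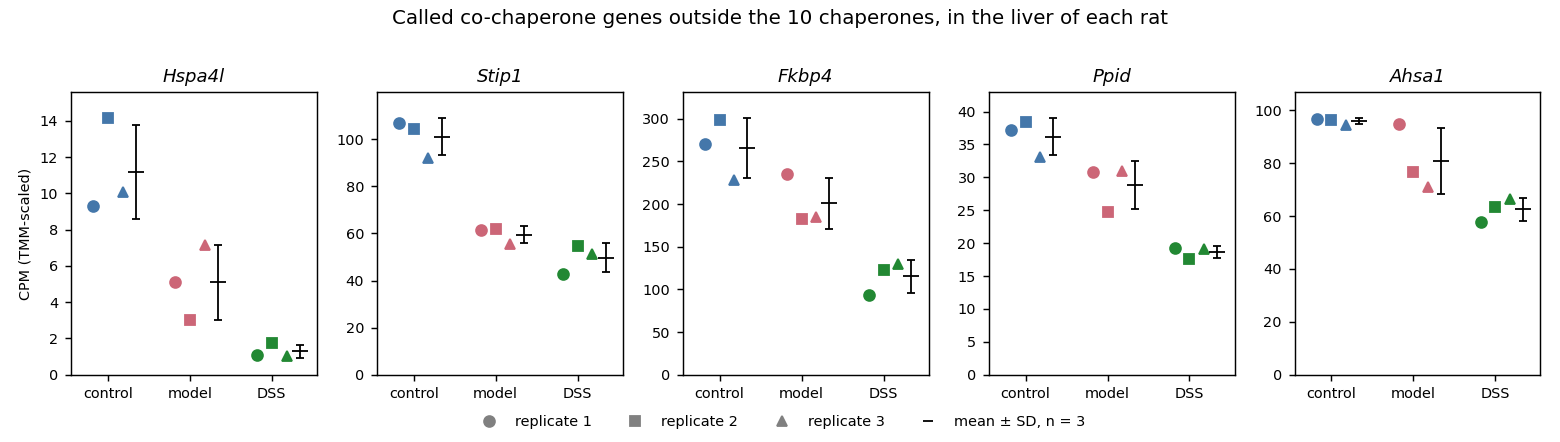
Level of the 5 called genes of the family lists other than immediate early genes in each library (y axis, TMM-scaled CPM, linear and starting at 0; x axis, groups). Symbols are replicates and black bars mean ± SD; in all 5 genes every DSS library lies below every other library.

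In 7 further lists (J-domain co-chaperones, TRiC and prefoldin, HSP70 exchange factors, mitochondrial chaperones, small heat shock proteins, heat shock factors and cold-inducible proteins), edgeR called no gene in any comparison. Of their 56, 57 and 56 genes tested in model against control, DSS against model and DSS against control, 12, 2 and 23 had an unadjusted p under 0.05 in either direction. These are 21.4%, 3.51% and 41.1% of the list genes, beside 13.2%, 8.02% and 24.3% of all genes. DESeq2 called 0, 0 and 5 of them, the last being Cct5, Cct6a, Cct8, Dnaja4 and Hspb8. Of 12 J-domain co-chaperones, 11 were negative in DSS against control (median -0.34) and 8 were separated downward, beside 50.9% and 14.9% of all genes, and Dnaja4, a cytosolic HSP40, had the smallest p (-0.91, FDR 0.0120). Dnajb2 had the smallest p of the list in model against control (-0.42, FDR 0.198). Of the 14 subunits of TRiC, the cytosolic chaperonin, and of prefoldin, which hands it unfolded actin and tubulin, 13 were negative in DSS against control (median -0.25), 8 were separated downward and 3 passed an FDR of 0.05 together with the fold threshold (3.29% of all genes did). Cct6a was at -0.63 (FDR 0.0114) there, Tcp1 at -0.50 (FDR 0.154) in model against control and Cct8 at -0.25 (FDR 0.657) in DSS against model.

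The 10 HSP70 exchange factors and regulators tested had a median of -0.08 in DSS against control, with Bag4 at 0.75 (FDR 0.0826). Stub1, a ubiquitin ligase that tags HSP70 clients, was at -0.21 (FDR 0.544) in model against control, and Hspbap1 was at -0.41 (FDR 0.692) in DSS against model. The 10 mitochondrial chaperones and proteases had a median of -0.14 in DSS against control, with Grpel1, the exchange factor of mitochondrial HSP70, at -0.22 (FDR 0.201). Clpx, a mitochondrial unfoldase, was at 0.81 (FDR 0.193) in model against control and -0.59 (FDR 0.453) in DSS against model. The genes listed by symbol as other small heat shock proteins had a median of 0.08 over 4 genes tested in DSS against control. That median became -0.06 with library size alone as the scale. The highest of the 4 was Hspb11, at 0.70 (FDR 0.146). Hspb8 was at -0.60 (FDR 0.0107) in DSS against control and -0.48 (FDR 0.275) in model against control. Cryab went the other way in model against control, at 1.04 (FDR 0.326), with every model rat above every control rat. In DSS against model Cryab was at -0.73 (FDR 0.778).

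The list of heat shock factors holds Hsf1, Hsf2, Hsf4 and Hsbp1, which encodes a protein that binds these factors. Of these 4 genes, 1 was negative in model against control (2 with library size alone), 4 in DSS against model and 2 in DSS against control. Hsf1 was at 11.7, 13.1 and 11.1 CPM in the control replicates, 11, 8.28 and 10.3 CPM in the model replicates and 7.42, 10.6 and 11.1 CPM in the DSS replicates. The mRNA of Hsf1 is not a measure of the activity of its protein, which is set mainly after translation. Hsf2, a related factor, was at 0.62 (FDR 0.111) in model against control and 0.44 (FDR 0.0744) in DSS against control, and Hsf4 was at -0.41 (FDR 0.826) in DSS against model. In model against control the median of the 4 genes was 0.21 (0.05 with library size alone).

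A list of further genes known from textbooks as HSF1 targets had 13 of 14 genes tested and shares genes with the families above. In DSS against control 11 of the 13 were negative, 10 were separated downward, and Hspa4l, Stip1, Fkbp4 and Ahsa1 were called lower. Among all genes 50.9% were negative, 14.9% were separated downward and 0.823% were called lower. The list median was -0.62 in DSS against control, -0.41 in model against control and -0.26 in DSS against model, beside -0.01, 0.00 and 0.00 for all genes. In model against control 12 of the 13 were negative, beside 50.1% of all genes, and Cryab was the 1 positive gene.

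**Figure D4:**
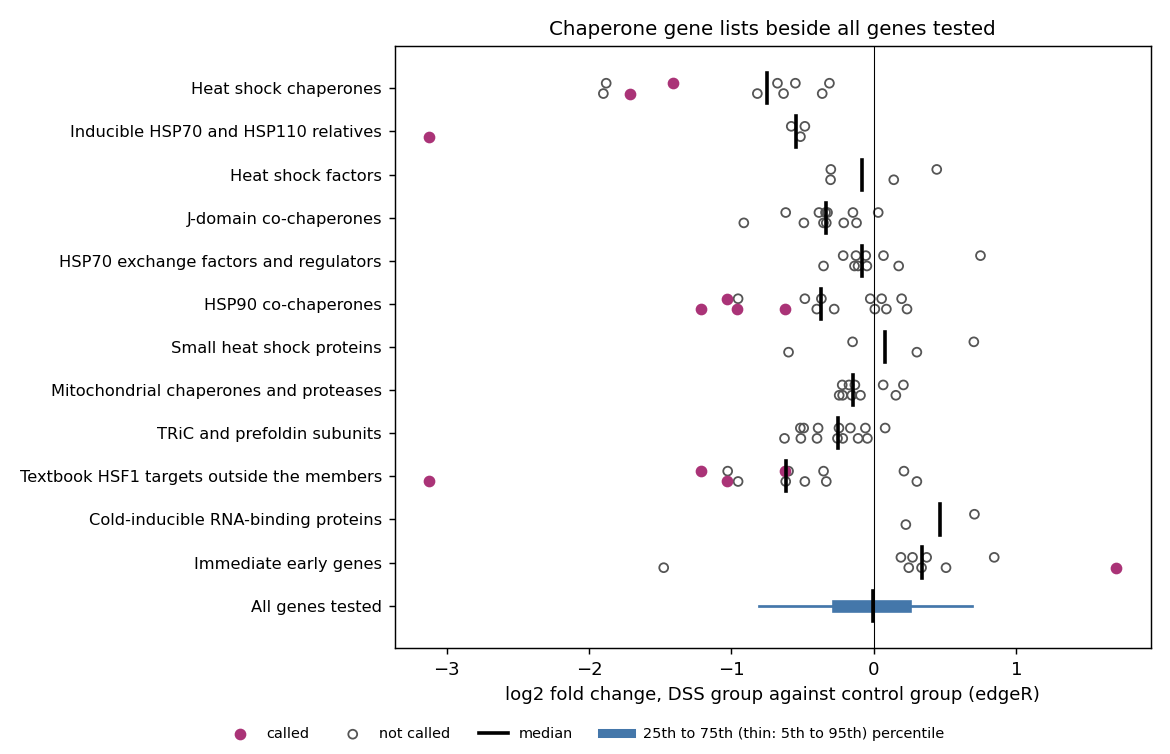
Log2 fold change in DSS against control (x axis, edgeR) of each tested gene of the chaperones and 11 family lists (y axis), with called genes filled, list medians as black bars, and the 5th, 25th, 75th and 95th percentiles of all genes tested at the bottom. The chaperone median drawn is that of all 10 genes, -0.75, and it is -0.68 without Hspa1b. The 5th and 95th percentiles of all genes are -0.81 and 0.69; Hspa4l lies at -3.12, and the called gene above 0 is Junb, an immediate early gene.

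Genes with a pattern over the 9 libraries most like that of 2 of the chaperones were listed by the root mean square difference of log2(CPM + 1) after centring each gene, among 10102 genes with a mean count of at least 50. For Hspa1b the nearest were Phospho1 (0.224), E2f2 (0.239), Scml4 (0.240), Kctd7 (0.259) and AABR07001905.2 (0.270). The nearest chaperone, Dnajb1, was at place 21 with 0.316. For Hspd1 they were Mettl17 (0.0676), LOC314140 (0.0713), Sp110 (0.0786), Acy1 (0.0788) and Pacsin2 (0.0874). Hsp90ab1 was at place 7 with 0.0916, and Hspe1, whose mouse promoter is shared with Hspd1, was at place 901 with 0.237. These distances are descriptions over libraries that differ in treatment. Hspa1b itself was below the mean count of 50 and was added by name. At its 0.270 to 2.49 CPM the 1 added before the logarithm flattens its pattern, so its distances cannot be set beside those of Hspd1.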

How the data were processed

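Liver mRNA enriched with oligo(dT) was sequenced on an Illumina platform in 3 control, 3 model and 3 DSS libraries. The authors aligned reads with HISAT2 to the rat build Rnor 6.0 and assigned them to exons, ignoring strand, with HTSeq 0.6.1 (tools and build from the submitters' processing notes and the study's methods), and they deposited raw whole-number counts per gene without normalization. The table gives no positions. Overlapping genes and near-identical copies, such as Hspa1b with Hspa1a and chaperones with processed pseudogenes, can therefore share or lose reads. A deposited table of 127 assembled transcripts was not used. No column of another series was present.

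For each comparison, edgeR 4.0.16 under R 4.3.3 was run on the libraries of its groups (filterByExpr, TMM, robust glmQLFit, two-sided glmQLFTest), with Benjamini-Hochberg adjustment over all genes tested (FDR). A gene was called where the FDR was at most 0.01 and the log2 fold change reached 0.5 in either direction, the thresholds named in the study's methods, which used DEGseq and DESeq. CPM are scaled by TMM over all 9 libraries. Groups were called separated, or not overlapping, from these CPM, with no test. The fits were tested on simulated counts first.

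Beside the 10 chaperones, the text names every list gene that was called, the gene with the smallest p in each list and comparison, and the 5 genes most like Hspa1b and the 5 most like Hspd1. Hsf1, Hsbp1, Hspb11, Jun, Dusp1, Btg2, Atf3 and Cct5 were added after their values were seen. The chaperones and all lists were chosen with earlier results of these data known, so they are no independent support for a direction. The list genes Hspa1a and Hspb3, and markers including Hba1, Hba2, Pecam1, Ckm, Acta1 and Myh7, were not matched in the table. Labels give the libraries as separate samples and do not say that each is 1 rat, so p-values judge group differences against the spread between these samples.

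Alternatives were library size alone in place of TMM, the size factors of DESeq2, the test of DESeq2 1.42.0, no filter, a minimum of 10 counts in every library, a replicate block, one fit of all 9 libraries, each library left out, and thresholds with an FDR of 0.05 or without a fold change. Separation of groups under other scales and without model replicate 1, and these alternatives for list genes that were called, were chosen after seeing the data.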

Additional observations from a re-analysis of the deposited data

How the results depend on the processing

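Of the 2 chaperones called in DSS against control, the number became 5 with library size alone, 5 without a filter on low counts, 7 with DESeq2, 1 with all 9 libraries in one fit (where Ahsa1 lost its call too, FDR 0.0261), 6 at an FDR of 0.05, and 0 to 2 with 1 library left out. In model against control it was 2 with DESeq2 and 0 otherwise, and in DSS against model 0 under every alternative run. Among all genes, the 10 called in model against control became 71 without a filter, 256 with DESeq2, 25 in one fit and 75 at an FDR of 0.05 (0 to 10 with 1 library left out). The 17 in DSS against model became 11 with library size alone, 38, 147 with DESeq2 and 57 (2 to 12 with 1 left out). The 187 in DSS against control (83 higher, 104 lower) became 489 without a filter, 769 with DESeq2, 113 in one fit and 804 at an FDR of 0.05 (86 to 132 with 1 left out), and library size alone gave 57 higher and 181 lower. That scale moved the median of all genes by -0.14 in both comparisons with the control group. It left 1 chaperone separated in DSS against model in place of 3, and the share of all genes on that scale was not counted. Without model replicate 1, 8 chaperones were separated in model against control (16.0% of all genes, lower) and 3 in DSS against model (12.7%).

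Signs turned, with none of the values past the thresholds, when 1 library was left out. In model against control the log2 fold change of Hspa1b then ran from -1.06 to 0.37 (positive without control replicate 1) and that of Dnajb1 from -0.22 to 0.13 (positive without control replicate 1, 0.09, or model replicate 2). In DSS against model that of Hspa8 ran from -0.040 to 0.18 (negative without model replicate 3, or without DSS replicate 2, -0.03) and that of Hspa4 from -0.11 to 0.0026 (positive without DSS replicate 1). The cause was not tested.

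The replicate numbers did not pair the libraries, since same-numbered libraries had correlations of their deviations between -0.259 and -0.012. With the replicate block, 0 chaperones were called in the 3 comparisons (in DSS against control, FDR 0.0198 for Hsph1 and 0.0159 for Hsp90aa1). Fkbp4, Ppid, Ahsa1 and Junb also lost their calls (FDR 0.0105, 0.0115, 0.030 and 0.0162), and 0, 7 and 104 genes were called among all tested in model against control, DSS against model and DSS against control.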

Other observations

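Further lists of genes that respond quickly to handling, temperature or stress were counted beside the chaperones. All 9 immediate early genes tested, of 10 listed, had a positive log2 fold change in model against control, as did 6227 of all 12486 genes. Their median was 0.79, beside 0.00 for all genes. In 3 of the 9 every model rat lay above every control rat, as in 1400 of all genes. For Jun, Dusp1, Btg2 and Atf3, model replicate 3 lay below every control rat. None of the 9 genes was called by edgeR, while 5 had an unadjusted p under 0.05. All 5 were higher, as were 854 of all genes with such a p. Ier2 had the smallest p there (1.12, FDR 0.121) and was the 1 gene of the list called by DESeq2, which called 128 of all genes higher. In DSS against model their median was -0.62, with Fos at -2.26 (FDR 0.0434), which DESeq2 called (adjusted p = 0.000215). Fos was at 1.20, 1.31 and 1.99 CPM in the control replicates, 2.67, 3.02 and 2.09 CPM in the model replicates and 0.487, 0.431 and 0.676 CPM in the DSS replicates, so that its 3 groups did not overlap. With library size alone as the scale, 8 of the 9 genes were positive in model against control.

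Junb, a subunit of the AP-1 transcription factor, was the list gene that rose by edgeR. DESeq2 called it higher in DSS against control too, together with Jun, another subunit (0.85, DESeq2 adjusted p = 0.00246, edgeR FDR 0.0584). Of all 12633 genes tested there, DESeq2 called 389 higher. Junb was at 14.3, 19.0 and 14.4 CPM in the control replicates, 128, 138 and 18.2 CPM in the model replicates and 57.8, 39.7 and 58.3 CPM in the DSS replicates. Model replicate 3 was near the control rats while the other model rats were far above them. The log2 fold change was 1.70 (FDR 0.00183) in DSS against control and 2.57 (FDR 0.136) in model against control. The call was lost without control replicate 1 (FDR 0.0123) and with all 9 libraries in one fit (FDR 0.152). Of the cold-inducible RNA-binding proteins, Cirbp was at 0.75 (FDR 0.193) in model against control and 0.71 (FDR 0.117) in DSS against control, and Rbm3 was at 0.21 (FDR 0.830) in DSS against model.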
